A study of Mus musculus with 6 samples.

Results

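The miR-15, miR-16 and miR-195 family was followed in mouse kidney through 6 mature microRNAs (miRNAs, short RNAs that guide the repression of messenger RNAs): mmu-miR-15a-5p, mmu-miR-15b-5p, mmu-miR-15b-3p, mmu-miR-16-5p, mmu-miR-195a-5p and mmu-miR-497a-5p, written below without the species prefix. They were taken from the count table by name and are 6 of its 1542 entries. All 6 passed the filter on low counts, as did 451 entries in all. Whole kidneys of female mice aged 17 weeks were profiled, with 3 libraries from C57BL/6 wild-type mice and 3 from MRL/lpr mice, whose labelled genotype is MRL/MpJ-Fas<lpr>/J. In MRL/lpr mice the death receptor gene Fas is disrupted by the lpr mutation, and the animals develop lupus with kidney inflammation. The labels name no treatment, and the comparison asks which kidney miRNAs differ between lupus-prone and control mice. The genetic background, the lpr mutation and the disease differ together between the groups and cannot be told apart. Whether every library is a different animal is not stated in the labels, so p-values here measure only the spread between libraries.

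miRNAs of this family share a seed, the short stretch near the 5′ end that pairs with target messages, and are known to repress cell cycle and survival genes such as cyclins and Bcl2. miR-15a and miR-16-1 come from one primary transcript and miR-15b and miR-16-2 from another, and loss of the former locus is a well known lesion of chronic lymphocytic leukaemia. miR-195a and miR-497a are made from another locus and are known for restraining the division of heart muscle cells after birth. miR-16 is also abundant in red blood cells.

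The mature sequences are shown from RefSeq (GRCm38.p6), in which all 6 members were found, with the seed (bases 2 to 8) in capitals, because the shared seed defines the family and the bases after it tell the members apart.
miR-16-5p: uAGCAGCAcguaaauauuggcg
miR-195a-5p: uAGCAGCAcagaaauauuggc
miR-15a-5p: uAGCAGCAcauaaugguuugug
miR-15b-5p: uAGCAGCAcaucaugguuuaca
miR-497a-5p: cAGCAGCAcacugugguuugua
miR-15b-3p: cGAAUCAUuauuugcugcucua
Among the members, 5 carried the seed AGCAGCA. miR-15b-3p, the minor arm of the miR-15b hairpin, carried another. RefSeq held 10 mature names with this seed among 1679 (0.596%), and 6 of the 10 were in the count table: the 5 members and the X-linked miR-322-5p.

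The closest pair was miR-16-5p and miR-195a-5p, which differed at 2 of the 21 bases that could be compared, G10A and U11G (miR-16-5p base first, positions counted from 1 at the 5′ end). miR-15a-5p and miR-15b-5p differed at 4 of 22 bases, all after the seed: A12C, G20A, U21C and G22A (miR-15a-5p base first). miR-497a-5p was nearer to the miR-15 pair, with 5 differences from miR-15a-5p and 6 from miR-15b-5p, than to miR-16-5p, with 11. No source used here says how reads matching several miRNAs were assigned, so the counts of miR-195a-5p, which lies 2 bases from a far more abundant miRNA, are uncertain.

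The hairpins lie in 3 pairs on the autosomes (GRCm38, GENCODE M21). Mir15a (chr14:61632027-61632110, minus strand) lies in an intron of the non-coding RNA gene Dleu2, and Mir16-1 (chr14:61631880-61631972, minus strand) lies 54 bases away and overlaps an annotated Dleu2 exon. Mir15b (chr3:69009772-69009835, plus strand) and Mir16-2 (chr3:69009902-69009996, plus strand) lie 66 bases apart in an intron of Smc4, a subunit gene of the condensin complex. Mir195a (chr11:70235042-70235135, plus strand) and Mir497 (chr11:70234717-70234800, plus strand) lie 241 bases apart, outside any host gene of that annotation, and Mir497 lies opposite Mir497b on the other strand. The hairpins of miR-16 are shown with their mature arms in capitals because the 5′ arm is the same in both and only the 3′ arm tells the loci apart.
Mir16-1: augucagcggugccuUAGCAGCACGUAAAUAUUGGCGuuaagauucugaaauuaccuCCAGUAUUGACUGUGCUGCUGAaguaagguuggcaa
Mir16-2: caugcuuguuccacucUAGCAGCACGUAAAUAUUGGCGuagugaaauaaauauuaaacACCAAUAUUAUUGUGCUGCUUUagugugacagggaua
The miR-15b hairpin, the one with both arms among the members, is shown the same way.
Mir15b: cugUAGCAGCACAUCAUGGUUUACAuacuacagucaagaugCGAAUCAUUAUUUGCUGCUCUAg
A search of the given strand for UGCUGCU, the reverse complement of the seed, found it in 4 of the 6 opposite (3p) arms of these hairpins: miR-15b-3p, miR-16-1-3p, miR-16-2-3p and miR-195a-3p. It occurred in 5 of 709 RefSeq names ending in 3p (0.705%), these 4 among them, so that share is not a separate background.

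The libraries held 5259528 to 6773829 counts each. The kidney epithelial markers (10 of 10 in the table) summed to between 118923 and 164226 CPM (counts relative to the library total, corrected with TMM factors), while markers of liver, skeletal muscle and brain summed to between 133 and 246 CPM. C57BL/6 replicate 2 stood apart from the other libraries. Its kidney epithelial sum was the lowest, 118923 CPM against 144750 to 164226 CPM in the other 5 libraries. Of those 10 markers, 8 were lower in it than in both other C57BL/6 libraries, and 1 was higher than in both. Its 5 leukocyte markers summed to 27283 CPM, against 5553 and 5789 CPM in the other C57BL/6 libraries and 8677 to 10293 CPM in MRL/lpr, and its 2 myeloid markers to 1172 CPM against 243 to 434 CPM in the other 5 libraries. Its 4 erythroid markers summed to 594 CPM against 2841 to 4305 CPM, and all 5 leukocyte and both myeloid markers were higher in it than in the other C57BL/6 libraries. The erythroid sum in this library was nearly all miR-451a (593 CPM), with 3, 1 and 3 counts of miR-144-3p, miR-144-5p and miR-486a-5p. Of the 4 erythroid markers, 3 were lower in it than in both other C57BL/6 libraries. Its leukocyte sum was mostly miR-146a-5p (25568 CPM). Against MRL/lpr, miR-142a-3p (88.8 CPM) and miR-155-5p (102 CPM) were lower in it than in every MRL/lpr library, miR-142a-5p (176 CPM) lay among them, and miR-150-5p (1348 CPM) and miR-146a-5p were higher. The log2 fold changes of the members are also given without this library.

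No family member passed the test between the strains. Of the 6, 0 had an adjusted p under 0.05 (edgeR quasi-likelihood test, adjusted over all 451 entries), against 6.21% of all entries, and 1 had an unadjusted p under 0.05, against 20.8% of all entries. The median log2 fold change (MRL/lpr over C57BL/6) was -0.11 over the 6 members, with 2 above 0 and 4 below, and -0.027 over all tested entries. Values of the strains did not overlap for 1 member, miR-497a-5p, against 28.8% of all entries. Without C57BL/6 replicate 2, 0 members passed, against 11.5% of all entries, and 2 members (miR-497a-5p and miR-15b-3p) did not overlap, against 45.7% of all entries. DESeq2 called 0 members, against 8.39% of all entries with an adjusted p, and limma-voom 0, against 4.66%. Without a filter on low counts, edgeR called 1, miR-497a-5p, against 4.59% of 1395 entries. Because these are whole kidneys, fewer cells of a type and less RNA per cell cannot be told apart.

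**Figure D1:**
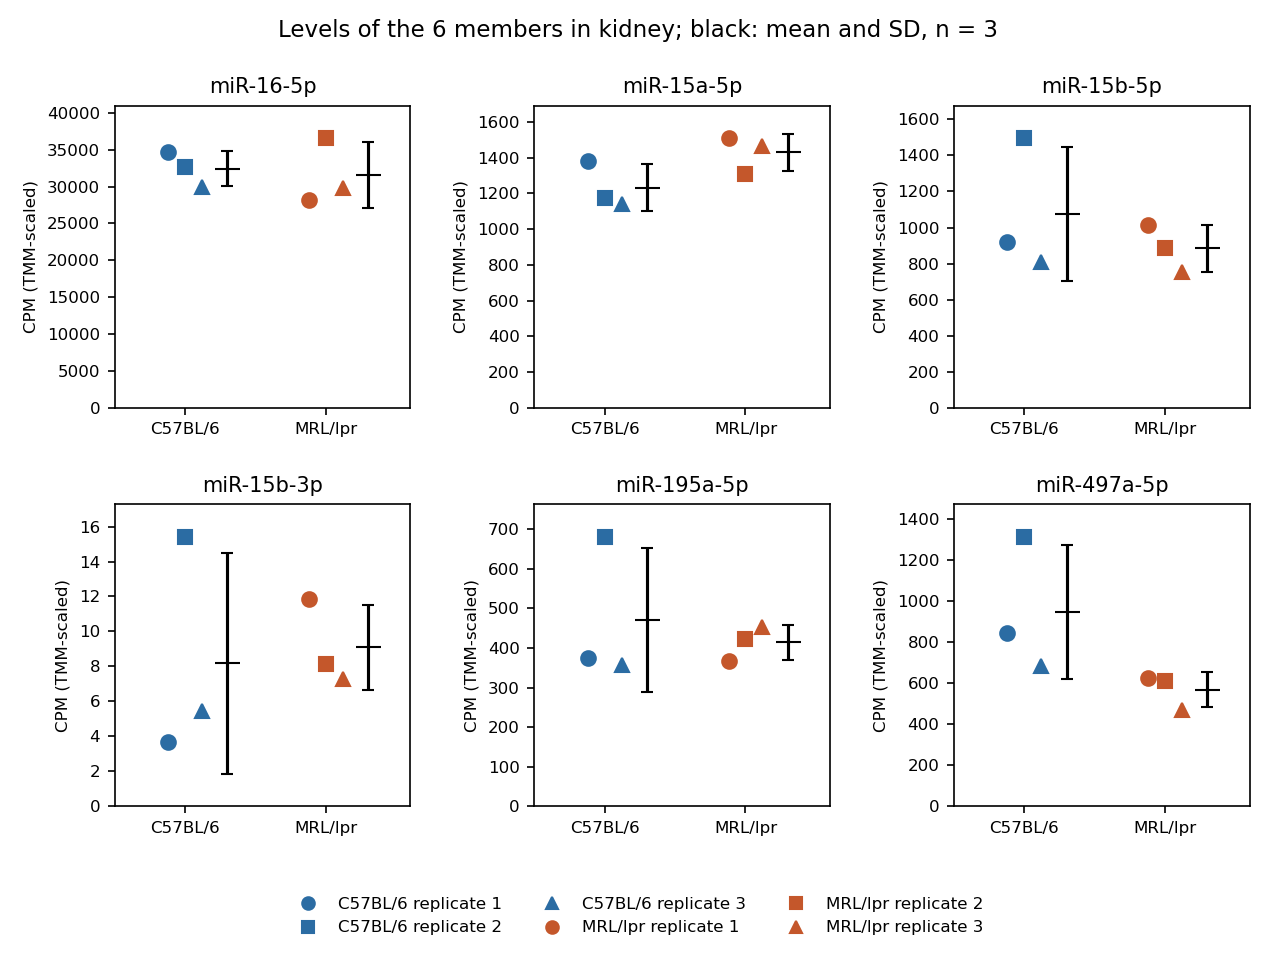
Level of each of the 6 members in CPM (TMM-scaled, linear axis from 0) in the 3 C57BL/6 and 3 MRL/lpr libraries, one symbol per library, with the mean and SD (n = 3) in black. The strains overlap for every member except miR-497a-5p, and C57BL/6 replicate 2 (square) is the highest C57BL/6 library for 4 of the 6.

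miR-16-5p, the dominant member, did not differ between the strains beyond the spread of the libraries. It had 34692, 32687 and 29914 CPM in C57BL/6 replicates 1, 2 and 3 and 28228, 36590.2 and 29760.3 CPM in MRL/lpr replicates 1, 2 and 3. The highest and the lowest library were both MRL/lpr. The means were 32431 ± 2399 and 31526 ± 4452 CPM (SD, n = 3), and miR-16-5p ranked 8 of the 451 tested entries by mean CPM. Its log2 fold change was -0.041 ± 0.15 (SE; edgeR adjusted p = 0.900), with a 95% interval from -0.37 to 0.29, that is between 0.775-fold and 1.22-fold. Its sign turned with the setting, with 0.10 under library-size scaling, so no direction can be given. Without C57BL/6 replicate 2 it was -0.014 (adjusted p = 0.977).

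miR-15a-5p, which is made beside miR-16-1, had 1381, 1174 and 1139.5 CPM in C57BL/6 and 1510.3, 1311 and 1465 CPM in MRL/lpr. The lowest MRL/lpr library lay below the highest C57BL/6 library, so the groups overlapped. The means were 1232 ± 130.4 and 1429 ± 104 CPM (SD, n = 3), a log2 fold change of 0.21 ± 0.17 (SE; edgeR adjusted p = 0.526; 95% interval -0.16 to 0.59). It was above 0 in all 14 alternative fits, from 0.12 to 0.37 (0.21 without C57BL/6 replicate 2), and passed in none of them.

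miR-15b-5p, which is made beside miR-16-2, had 917, 1497 and 806 CPM in C57BL/6 and 1012, 888 and 752 CPM in MRL/lpr. C57BL/6 replicate 2 was the highest of the 6 libraries, and the other 5 lay between 752 and 1012 CPM with both strains mixed. The log2 fold change was -0.28 ± 0.25 (SE; edgeR adjusted p = 0.569; 95% interval -0.84 to 0.28). Without C57BL/6 replicate 2 it was 0.061 ± 0.19 (adjusted p = 0.881), so its sign rested on that library.

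miR-15b-3p, the minor arm of the same hairpin, is a low-count member, with 18, 96 and 35 counts in C57BL/6 and 84, 42 and 44 in MRL/lpr. These are 3.68, 15.4 and 5.45 CPM against 11.9, 8.15 and 7.28 CPM. The C57BL/6 libraries held both the lowest and the highest values. At 18 counts the counting error alone is 23.6% of the value, while the SD was 77.3% of the mean in C57BL/6 and 26.7% in MRL/lpr. The log2 fold change was 0.15 ± 0.51 (SE; edgeR adjusted p = 0.897; 95% interval -0.99 to 1.28). Without C57BL/6 replicate 2 the groups no longer overlapped and miR-15b-3p was 2.00-fold higher in MRL/lpr (log2 fold change 0.999 ± 0.38 SE, edgeR adjusted p = 0.132), and without C57BL/6 replicate 1 the log2 fold change was -0.24 (adjusted p = 0.855).

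miR-195a-5p had 375, 681 and 356 CPM in C57BL/6 and 368, 422 and 454 CPM in MRL/lpr. As with miR-15b-5p, C57BL/6 replicate 2 was the highest library and the other 5 mixed the strains. The log2 fold change was -0.18 ± 0.27 (SE; edgeR adjusted p = 0.721; 95% interval -0.78 to 0.42), and without C57BL/6 replicate 2 it was 0.20 ± 0.19 (adjusted p = 0.544).

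With all 6 libraries miR-497a-5p had the largest log2 fold change of the 6 members in absolute size, and without C57BL/6 replicate 2 that of miR-15b-3p was larger. miR-497a-5p had 846, 1313 and 685 CPM in C57BL/6 and 624, 609 and 471 CPM in MRL/lpr. All 3 MRL/lpr libraries lay below all 3 C57BL/6 libraries, an order of this direction that 14.9% of all tested entries showed. The means were 948 ± 326 and 568 ± 84.5 CPM (SD, n = 3), 1.67-fold lower in MRL/lpr, with a log2 fold change of -0.74 ± 0.26 (SE) and a 95% interval from -1.31 to -0.17. The unadjusted edgeR p was 0.0167 and the adjusted p 0.125, so it did not pass. Its log2 fold change was below 0 in all 14 alternative fits, from -0.96 to -0.41, and it passed in 1, the fit without a filter on low counts (-0.76, adjusted p = 0.0289). Without C57BL/6 replicate 2 the difference was smaller, 1.32-fold lower (log2 fold change -0.41 ± 0.19 SE, 95% interval -0.84 to 0.032, edgeR adjusted p = 0.222). The interval also spanned 0 without MRL/lpr replicate 3 (log2 fold change -0.59, 95% interval -1.28 to 0.096, edgeR adjusted p = 0.464).

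**Figure D2:**
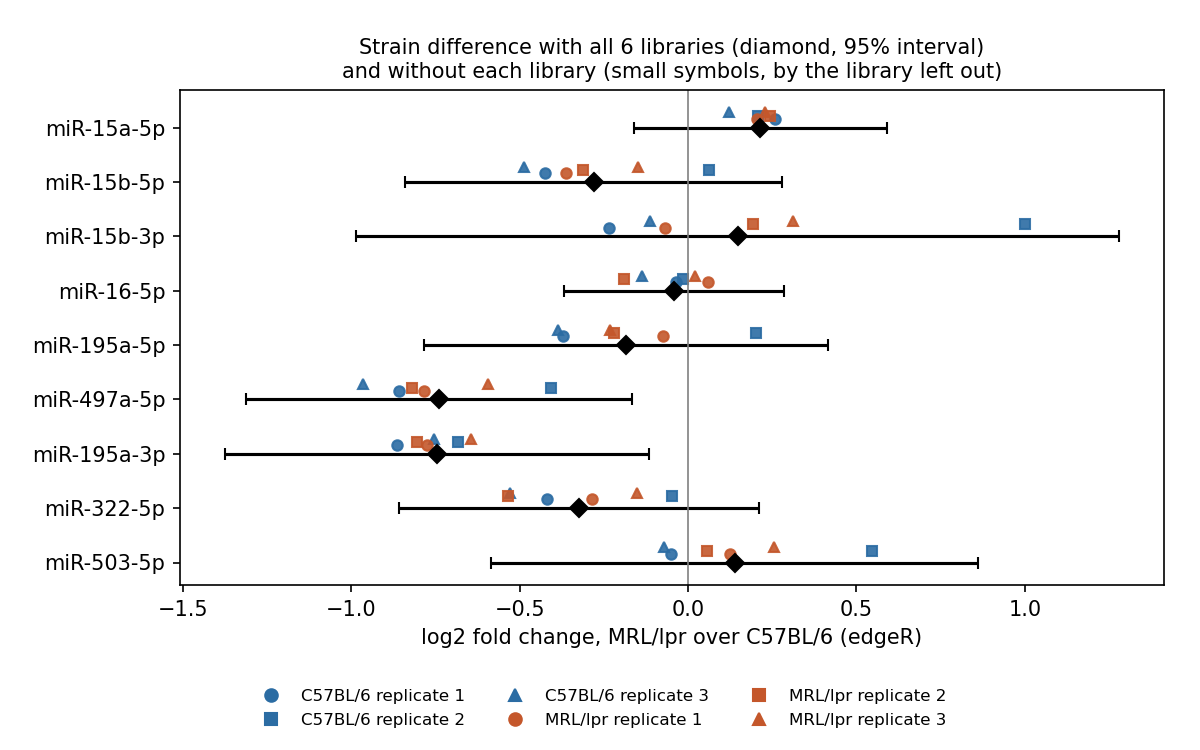
Log2 fold change (MRL/lpr over C57BL/6) of the 6 members, the partner arm miR-195a-3p and the X-linked miR-322-5p and miR-503-5p, with all 6 libraries (black diamond, with its 95% interval) and with each library left out (small symbols, coloured and shaped by the library left out). Intervals span 0 for all but miR-497a-5p and miR-195a-3p, and leaving out C57BL/6 replicate 2 (blue square) moves miR-15b-5p to 0.061, miR-195a-5p to 0.20 and miR-15b-3p to 0.999.

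By level, the order of the means was the same in both strains, with miR-16-5p first and miR-15a-5p second. miR-16-5p stood above every other member in every library, 21.8-fold to 41.2-fold over miR-15b-5p. In C57BL/6 the ranges of miR-15b-5p (1074 ± 371 CPM) and miR-497a-5p (948 ± 326 CPM; SD, n = 3) overlapped, but within each library miR-15b-5p was the higher, 1.08-fold to 1.18-fold by counts, and in MRL/lpr it was 1.46-fold to 1.62-fold higher. miR-15a-5p exceeded miR-15b-5p in every library but C57BL/6 replicate 2. In MRL/lpr miR-15b-5p (884 ± 130.3 CPM), miR-497a-5p (568 ± 84.5 CPM) and miR-195a-5p (415 ± 43.6 CPM) came next in that order. The means of these miRNAs stood in the same order in C57BL/6, where miR-195a-5p had 471 ± 182 CPM (SD, n = 3). miR-15b-3p was last in both strains. Adapter ligation favours some miRNA ends over others, so levels of different miRNAs are less comparable than levels of one miRNA between libraries.

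The 5 members with the shared seed took 3.44%, 3.74% and 3.12% of all counts in C57BL/6 replicates 1, 2 and 3 and 3.48%, 3.90% and 3.58% in MRL/lpr. The strains overlapped. miR-16-5p made up 87.5% to 91.9% of these counts in every library, so the share follows that miRNA. Within the 5, the share of miR-497a-5p was 2.21%, 3.51% and 2.08% for C57BL/6 against 1.96%, 1.53% and 1.43% for MRL/lpr. Every MRL/lpr library lay below every C57BL/6 library, but this share uses the miR-497a-5p counts already given and is not a separate observation. The share of miR-15a-5p was 3.61%, 3.14% and 3.46% for C57BL/6 against 4.76%, 3.29% and 4.45% for MRL/lpr, where the groups overlapped.

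Ratios inside a library were compared for 5 pairs, since they depend on the scaling only through the pseudocount of 1 CPM. The smallest exact two-sided permutation p that 3 against 3 libraries can give is 0.1, so no ratio could pass. Within the chromosome 11 pair, miR-195a-5p stood at 0.444, 0.519 and 0.520 of miR-497a-5p in C57BL/6 and at 0.590, 0.692 and 0.965 in MRL/lpr. Every MRL/lpr library was higher, and in these libraries C57BL/6 replicate 2 did not stand apart. In C57BL/6 the log2 ratio averaged -1.02 ± 0.13 and in MRL/lpr -0.45 ± 0.36 (SD, n = 3), a 1.49-fold difference with an exact permutation p of 0.1 (0.5 adjusted over the 5 ratios). Leaving out any one library kept the difference between 0.37 and 0.73 on the log2 scale.

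The other 4 ratios overlapped between the strains. miR-16-5p exceeded its neighbour miR-15a-5p 25.1-fold, 27.8-fold and 26.3-fold in C57BL/6 and 18.7-fold, 27.9-fold and 20.3-fold in MRL/lpr (exact permutation p = 0.4, adjusted 0.625). The C57BL/6 libraries held this ratio within a narrow range, and 2 of the MRL/lpr libraries lay below it. miR-16-5p exceeded miR-15b-5p 37.8-fold, 21.8-fold and 37.1-fold in C57BL/6 and 27.9-fold, 41.2-fold and 39.6-fold in MRL/lpr (exact permutation p = 0.5, adjusted 0.625). Here C57BL/6 replicate 2 was the lowest library, and without it the log2 difference in the ratio of miR-15b-5p to miR-16-5p turned from -0.19 to 0.069. miR-15a-5p stood at 1.51, 0.784 and 1.41 of miR-15b-5p in C57BL/6 and at 1.49, 1.48 and 1.95 in MRL/lpr (exact permutation p = 0.3, adjusted 0.625), so C57BL/6 replicate 2 was the one library with more miR-15b-5p than miR-15a-5p. Without C57BL/6 replicate 2 that log2 difference went from 0.45 to 0.16. For miR-195a-5p to miR-16-5p the exact permutation p was 0.9, and the log2 difference turned from -0.076 to 0.22 without that library.

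**Figure D3:**
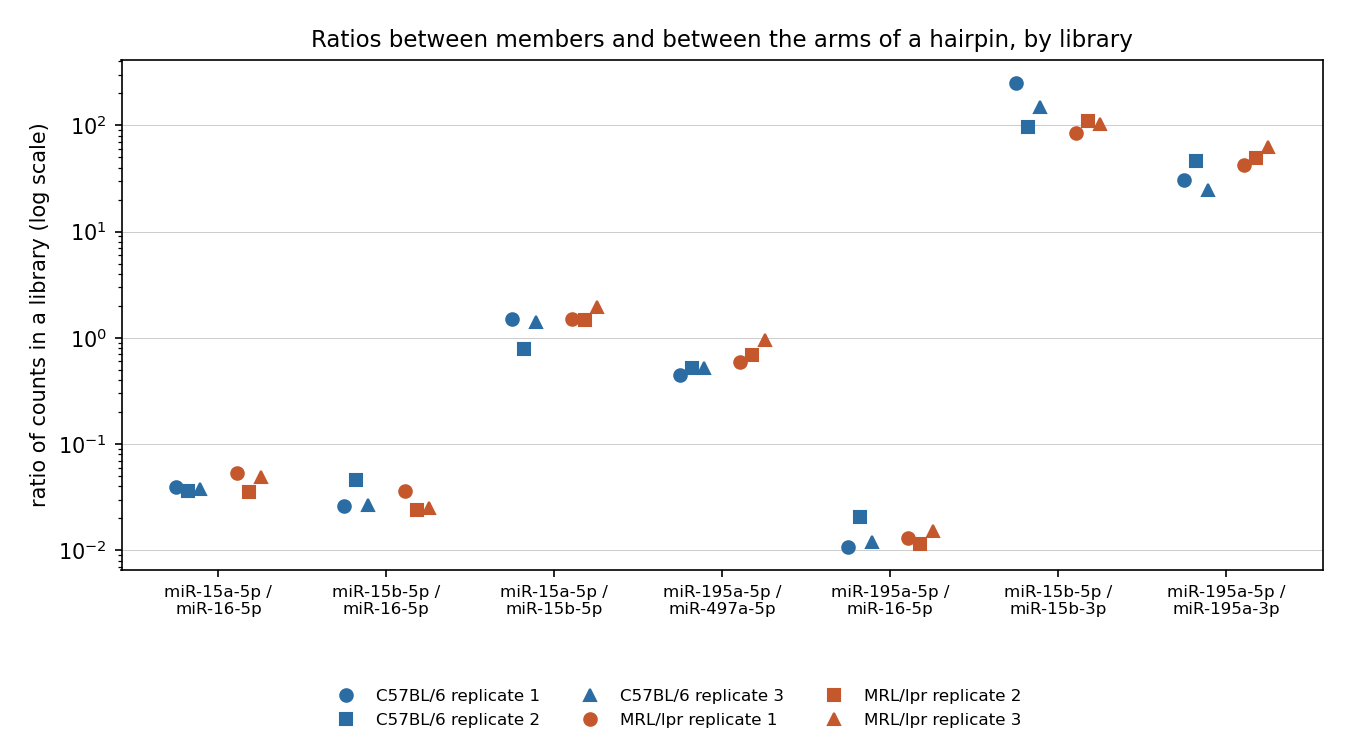
Ratio of the counts of 2 miRNAs within each library, on a log scale, for the 5 pairs compared and for the arms of the miR-15b and miR-195a hairpins, one symbol per library. The ratio of miR-195a-5p to miR-497a-5p is higher in all 3 MRL/lpr libraries (0.590 to 0.965) than in C57BL/6 (0.444 to 0.520), and the other ratios overlap.

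For the balance of the hairpin arms, the log2 ratio of the 5p to the 3p level was fitted with limma across 209 hairpins, of which 5 passed (2.39%), and 1 without C57BL/6 replicate 2. The 5p arm of miR-15b outnumbered its 3p arm 249-fold, 97.1-fold and 148-fold in C57BL/6 and 85.4-fold, 109-fold and 103-fold in MRL/lpr. C57BL/6 replicate 2 lay among the MRL/lpr values, and the other C57BL/6 libraries lay above them. The log2 ratio was 0.56 lower in MRL/lpr, a difference of -0.56 ± 0.30 (SE, limma adjusted p = 0.352), and did not pass. Without C57BL/6 replicate 2 the difference was -0.82 (limma adjusted p = 0.141). Leaving out C57BL/6 replicate 1 instead made it -0.28 (limma adjusted p = 0.768). The 249-fold ratio of C57BL/6 replicate 1 rests on 18 counts of miR-15b-3p. For miR-195a the 5p arm exceeded the 3p arm 30.6-fold, 46.6-fold and 24.8-fold in C57BL/6 and 42.02-fold, 49.4-fold and 62.4-fold in MRL/lpr. C57BL/6 replicate 2 again lay among the MRL/lpr values, and the other C57BL/6 libraries lay below them. The log2 difference for miR-195a was 0.56 ± 0.29 (SE; limma adjusted p = 0.352), opposite in direction to that of miR-15b, and did not pass. The miR-15a ratio also did not pass (limma adjusted p = 0.577). The miR-497a arms were not read because miR-497a-3p had 0 or 1 counts in every library.

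Of the other arms, miR-195a-3p was the one tested. It had 12.3, 14.6 and 14.3 CPM in C57BL/6 and 8.75, 8.54 and 7.28 CPM in MRL/lpr, from 44 to 92 counts. The strains did not overlap, and C57BL/6 replicate 2 was close to replicate 3, unlike for the 5p arm. The log2 fold change was -0.75 ± 0.28 (SE; 95% interval -1.38 to -0.12; edgeR adjusted p = 0.153), and without C57BL/6 replicate 2 it was -0.68 (adjusted p = 0.152). Of all tested entries, 14.9% likewise lay lower in every MRL/lpr library, and miR-195a-5p itself overlapped.

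The arms that tell the miR-16 loci apart were close to the limit of detection. miR-16-1-3p had 0 counts in every C57BL/6 library and 1 in every MRL/lpr library, and miR-16-2-3p had 3, 6 and 1 counts in C57BL/6 and 12, 1 and 14 in MRL/lpr. miR-15a-3p had 9, 7 and 9 counts in C57BL/6 and 24, 8 and 19 in MRL/lpr. None of the 3 passed the filter on low counts, and the share of miR-16-5p that came from each locus could not be read at this depth. miR-497b, which lies opposite miR-497a, had 0 to 5 counts, and no source used here says whether counting used the strand.

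Neither X-linked relative passed the test. miR-322-5p, with the same seed, had 4333, 6205 and 3533 CPM in C57BL/6 and 3666, 4643 and 2929 CPM in MRL/lpr, more than any member but miR-16-5p. Its log2 fold change was -0.32 ± 0.24 (SE; edgeR adjusted p = 0.496), and -0.048 without C57BL/6 replicate 2. miR-503-5p, whose seed differs from the shared one in its last base, had 11.9, 22.3 and 11.4 CPM against 17.6, 18.05 and 14.6 CPM (log2 fold change 0.14 ± 0.32 SE, edgeR adjusted p = 0.825; 0.55 without C57BL/6 replicate 2, adjusted p = 0.199). C57BL/6 replicate 2 was the highest library for both. Of the 3 relatives and partner arms tested, 0 passed, against 6.21% of all entries, and 1, miR-195a-3p, had an unadjusted edgeR p under 0.05, against 20.8%.

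Across the C57BL/6 libraries the members fell into separate patterns. In replicate 2 miR-15b-3p was 3.38 times the mean of the other C57BL/6 libraries, miR-195a-5p 1.86 times, miR-15b-5p 1.74 times and miR-497a-5p 1.72 times, while miR-16-5p was 1.01 times and miR-15a-5p 0.932 times that mean. Thus 4 of the 6 members were highest there, as were 38.1% of all tested entries. In the same library miR-146a-5p, induced in activated leukocytes, had 25568 CPM against 5010.2 and 4764 CPM, and the erythrocyte miRNA miR-451a had 593 CPM against 2828 and 3487 CPM. The level of miR-16-5p in this library lay between those of the other C57BL/6 libraries. The part of leukocyte or red cell RNA in these values was not tested.

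**Figure D4:**
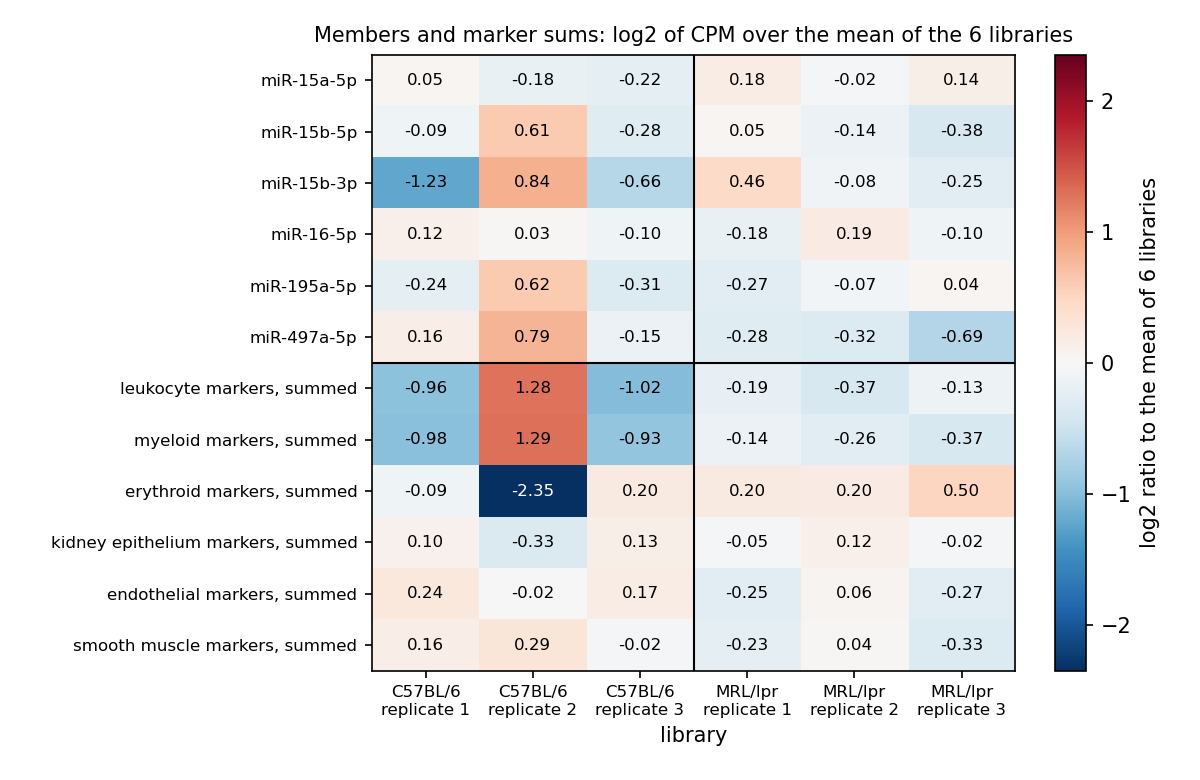
Colour and number give log2 of the CPM in a library over the mean of all 6 libraries, for the 6 members (above the line) and for summed cell type markers (below it), with libraries in columns. C57BL/6 replicate 2 is at 0.61 to 0.84 for miR-15b-5p, miR-15b-3p, miR-195a-5p and miR-497a-5p, and at 0.03 for miR-16-5p. It is at 1.28 for leukocyte markers (mostly miR-146a-5p), 1.29 for myeloid markers and -2.35 for erythroid markers (nearly all miR-451a).

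For each member the 3 most similar named miRNAs with a mean of at least 100 CPM were taken by Pearson correlation of log2 CPM. This is a description of 6 libraries that share depth and the outlying replicate. The 3 were the best of 149 candidates (150 for miR-15b-3p), and among so many a high r over 6 libraries can arise by chance. miR-15b-5p was most like miR-100-5p (r = 0.957), miR-181d-5p (0.939) and let-7i-5p (0.936), and miR-497a-5p was most like miR-100-5p (0.965), miR-23a-3p (0.955) and miR-93-5p (0.945). miR-195a-5p was most like miR-146a-5p (0.941), the myeloid miR-223-3p (0.904) and miR-342-3p (0.901), and miR-15b-3p most like miR-21a-5p (0.913), miR-214-3p (0.911) and miR-223-3p (0.907). miR-15a-5p was most like miR-374b-5p (0.909), miR-141-3p (0.899) and miR-340-5p (0.883). miR-16-5p had the weakest matches, miR-542-5p (0.863), miR-320-3p (0.856) and miR-484 (0.851). No member was among the 3 nearest of another, though miR-15b-3p, at a mean of 8.64 CPM, could not be a candidate. Between members, r ran from -0.58 (miR-15a-5p with miR-497a-5p) to 0.88 (miR-15b-5p with miR-497a-5p).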

How the data were processed

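The authors deposited one table of raw counts, whole numbers for each mature miRNA. Total kidney RNA was ligated to adapters, amplified and size-selected on gels, per the labels' protocols. Bowtie2, DESeq2 and GRCm38.p6 are named in the submitters' processing notes, with no role or version; no source used here says whether molecular identifiers were used. Columns were matched to samples by strain, age and replicate number in the titles. No library was a copy of another (chi-square per degree of freedom 123 to 726 between libraries of a strain).

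Tests used edgeR 4.0.16 and limma 3.58.1 (R 4.3.3). TMM scaling followed filterByExpr (minimum count 10, minimum total 15); the edgeR model held group alone with robust quasi-likelihood dispersion, and p-values were adjusted by Benjamini-Hochberg. Each edgeR standard error was derived from the log2 fold change and its test statistic. The 95% intervals used that standard error and the degrees of freedom of the moderated fit. An interval that does not reach equality of the strains therefore only restates an unadjusted edgeR p under 0.05. Arms were tested with limma after adding 1 CPM, ratios by exact permutation. The functions were tested on simulated data. Alternatives were other scalings, filters, pseudocounts, DESeq2 1.42.0, limma-voom, a replicate block and each library left out. Non-overlap without each library was added after seeing the data. All 6 members were named; similar miRNAs were named by correlation. The members, the marker lists (leukocyte, myeloid, erythroid, kidney epithelium, endothelial, smooth muscle, other tissues) and the rules were chosen with earlier results of these data known. The 2 endothelial markers summed to 69345 to 82907 CPM in C57BL/6 and 58049 to 73055 CPM in MRL/lpr, and the 2 smooth muscle markers to 29643 to 36760 and 23990 to 30837 CPM. Figures were drawn with matplotlib 3.10.9.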

Additional observations from a re-analysis of the deposited data

How the results depend on the processing

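No member passed the test in the fit with all 6 libraries or in 13 of the 14 alternatives, and 1 passed without a filter on low counts (miR-497a-5p, log2 fold change -0.76, adjusted p = 0.0289). The entries called among all miRNAs numbered 28, against 64 with no filter, 51 with DESeq2, 13 with the replicate block, and 5 to 54 with one library left out (5 without MRL/lpr replicate 3, 54 without C57BL/6 replicate 2); the cause was not tested. The hairpins called for arm balance numbered 5, against 1 with a pseudocount of 0.5, 12 with a pseudocount of 5, 2 with the replicate block and 1 to 15 with one library left out; the miR-15b difference stayed below 0 in all 9 alternatives (-0.82 to -0.28). Members without overlap numbered 1 of 6 (28.8% of all entries), and 1 to 3 with one library left out (31.7% to 45.7% of all entries). Signs turned for miR-16-5p (0.10 with library size alone, 0.012 with a minimum of 10 CPM, 0.058 and 0.021 without MRL/lpr replicates 1 and 3; -0.19 to 0.058 with one library left out), for miR-15b-5p and miR-195a-5p (0.061 and 0.20 without C57BL/6 replicate 2, and as low as -0.49 and -0.39 without C57BL/6 replicate 3), for miR-15b-3p (-0.24, -0.11 and -0.069 without C57BL/6 replicates 1 and 3 and MRL/lpr replicate 1, and 0.999 without C57BL/6 replicate 2) and for miR-503-5p (-0.052 and -0.070 without C57BL/6 replicates 1 and 3, and 0.55 without C57BL/6 replicate 2). The ratio of miR-15b-5p to miR-16-5p ran from -0.37 to 0.069 and that of miR-195a-5p to miR-16-5p from -0.26 to 0.22 with one library left out. With the replicate number as a block no member passed. Deviations from the group mean correlated at -0.37, 0.034 and -0.37 between same-numbered libraries, and at -0.18 to 0.39 between differently numbered ones. With 3 libraries per group this cannot decide whether the numbers pair the libraries. Library-size scaling moved the median of all tested entries from -0.027 to 0.12, and the calls from 67.9% to 80.0% higher; so each direction is relative to the scaling. Depth limits the minor arms of miR-16; for miR-15b-3p the spread between libraries exceeded the counting error.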
